A study of Sus scrofa with 46 samples.

Results

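The transcripts of 10 acute phase proteins were followed in the liver RNA of 46 newborn piglets. The genes were HP, HPX, CP, CRP, APCS, SAA3, LBP, ORM1, ITIH3 and ITIH4, and each was taken from the table of read counts by its symbol. All 10 symbols were present. CRP stood in the table as 2 genes with different identifiers, so the 10 symbols gave 11 of the 18440 genes of the table, and all 11 were among the 13780 genes that passed the filter on low counts and were tested.

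Acute phase proteins are plasma proteins that the liver makes in greater or smaller amounts during infection, injury and inflammation. Cytokines such as interleukin 6, interleukin 1 and tumour necrosis factor reach the hepatocyte, and relays that include STAT3, NF-kB and C/EBP factors then act on the promoters of these genes. In pigs, haptoglobin (HP), C-reactive protein (CRP), serum amyloid A and ITIH4, known in this species as pig-MAP, are used as blood markers of inflammation, and ITIH4 rises far more than it does in humans.

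The study asked whether growth restriction before birth changes the liver and the immune system of piglets, and whether extra energy after birth alters this. Piglets with intrauterine growth restriction (IUGR), picked out by the shape of the head at birth, were set against normal-sized piglets, and piglets of each size were given an energy-rich oral paste of colostrum, fatty acids and vitamins (Piggy Boost) or left without it. The groups were 13 treated IUGR, 10 untreated IUGR, 12 treated normal-sized and 11 untreated normal-sized piglets. All were crosses of Danish Landrace × Yorkshire sows with Duroc boars, were reared indoors with a nurse sow, and had their livers sampled at 72 hours of age. Littermates were spread over the groups, but the litter, the sampling week and the sex of each piglet are not in the labels, and the head shape is a visual grade and not a birth weight.

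Libraries held between 15036565 and 19340207 counts, with a median of 15902507, and the 11 genes together made up 2.94 to 6.09% of a library (median 4.39%). The listed markers of hepatocytes were found in every library, but not all at a steady level. ALB was at 19877 to 141998 CPM (counts scaled to library size), with a median of 96098 CPM. APOB fell to 770 CPM (median 9400 CPM), CPS1 to 576 CPM (median 3695 CPM) and FGB to 3169 CPM (median 13716 CPM). The other listed markers fell less, such as HNF4A to 184 CPM (median 263 CPM). Their sum was 74318 to 224043 CPM, with a median of 163553 CPM. The libraries headed 38 (untreated IUGR), 39 and 46 (treated IUGR) stood apart from the rest: a library's correlation with the rest had a median of 0.762 to 0.840 for these 3 and of 0.950 to 0.964 for the remaining 43. Many results that rest on them are given with and without them, but some group differences are given only with them in. Whether the pig numbers that head the columns stand over the right columns was in doubt, and the group labels follow those numbers. PDK4, CEL, CXCL12, SDF2L1 and ENHO, which the study names for growth restriction, served as a check of the headings in untreated piglets. With DESeq2, 0 of these 5 genes passed an adjusted p under 0.05 in the named direction as the columns are headed (244 genes passed in all), and 5 of 5 did with the headings sorted as text (47 genes in all). The named genes were thus recovered with the sorted headings and not with the columns as headed. The total with the sorted headings was also nearer to the number of changed genes that the study reports for growth restriction. Both checks therefore favoured the sorted headings over the arrangement that the group labels below follow. Groups are still given as labelled, so every group level, group difference and r within a group holds only if the headings are right. The pig numbers given for single livers depend on the headings too. Levels, spread and correlations over all livers do not depend on them.

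Positions are those of the pig genome Sscrofa11.1. The pentraxin genes share a stretch of chromosome 4, with CRP 100620468 at chr4:90782741-90785051, CRP 396842 at chr4:90793361-90801020 and APCS at chr4:90900585-90901854, so that 8309 bases separate the CRP genes and 99564 separate CRP 396842 from APCS. ITIH3 (chr13:34911104-34924881) and ITIH4 (chr13:34928455-34948250) are 3573 bases apart, and CP lies on the same chromosome (chr13:89396713-89463540). HP is at chr6:14980382-14985245, HPX at chr9:3288288-3297051, SAA3 at chr2:41021349-41025950, LBP at chr17:41398935-41429467 and ORM1 at chr1:254939154-254943065. Counts of SAA3 and ORM1 were not whole in any of the 46 libraries, those of CP in 37, of ITIH4 in 35 and of CRP 396842 in 3, so part of their reads was shared out between places. Some members overlap a neighbour in the annotation: CP shares 12790 bases with HPS3, ITIH4 1991 with LOC100153598, ORM1 192 with AKNA and HP 183 with TXNL4B, and APCS lies inside LOC100520241. The sources used here do not say whether counting used the strand, so reads of overlapping genes may not be told apart.

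The levels below are CPM after TMM adjustment of the library totals. They are not per length of transcript, so they were compared between livers and not between genes. In bulk tissue, fewer cells of a type and less RNA per cell cannot be told apart.

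The first group binds haemoglobin, haem and copper. HP encodes haptoglobin, which binds free haemoglobin. It had 12377, 17044 and 21637 CPM (lowest, median and highest) in treated IUGR livers and 8787, 11716 and 31258 CPM in untreated IUGR livers, against 8908, 14006 and 22417 CPM in treated and 11331, 19556 and 29833 CPM in untreated normal-sized livers. All 4 groups overlapped. Both the lowest liver (pig 21) and the highest (pig 36) were untreated IUGR livers, and HP took up a median of 1.54% of all counts.

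HPX encodes hemopexin, which binds free haem. Its lowest, median and highest levels were 1519, 2093 and 4148 CPM in treated and 1074, 1699 and 3730 CPM in untreated IUGR livers, against 1205, 1785 and 2427 CPM in treated and 1536, 2122 and 2804 CPM in untreated normal-sized livers. The 3 highest livers were those headed 39, 46 and 38. CP encodes ceruloplasmin, the copper-carrying ferroxidase of plasma. It had 67.9, 2272 and 3749 CPM in treated and 265, 1639 and 3220 CPM in untreated IUGR livers, against 1021, 2047 and 3826 CPM in treated and 697, 2331 and 4133 CPM in untreated normal-sized livers. Here the same 3 livers were the lowest of all.

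The pentraxins are ring-shaped proteins that bind microbes and dying cells and start complement. CRP 396842 had 16.6, 34.1 and 218 CPM in treated and 7.78, 21.0 and 149 CPM in untreated IUGR livers, against 20.3, 50.1 and 264 CPM in treated and 15.3, 73.1 and 220 CPM in untreated normal-sized livers. In 9 of the 10 untreated IUGR livers it was at or below 39.7 CPM, and only pig 36 was above. CRP 100620468 had 45.2, 167 and 549 CPM in treated and 67.9, 129 and 195 CPM in untreated IUGR livers, against 62.8, 144 and 319 CPM in treated and 80.1, 165 and 260 CPM in untreated normal-sized livers. Its highest levels, 549 CPM (pig 11) and 456 CPM, were both in treated IUGR livers. The CPM ratio of CRP 100620468 to CRP 396842, not adjusted for transcript length, ran between 0.527 (pig 34) and 12.6 (pig 17) with a median of 3.61, so the 2 CRP genes did not hold a fixed proportion. APCS encodes serum amyloid P component, the other short pentraxin. It had 61.4, 394 and 713 CPM in treated and 103, 303 and 669 CPM in untreated IUGR livers, against 133, 289 and 1186 CPM in treated and 151, 434 and 880 CPM in untreated normal-sized livers.

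SAA3, a serum amyloid A gene whose protein is carried on high-density lipoprotein in inflammation, had the widest range of all 11 genes. It had 26.3, 114 and 590 CPM in treated and 14.7, 80.2 and 1425 CPM in untreated IUGR livers, against 30.5, 78.9 and 1179 CPM in treated and 9.94, 44.4 and 409 CPM in untreated normal-sized livers. The highest liver (pig 36) was 143 times the lowest (pig 9). Pigs 36 and 50 stood far above the rest of their groups, where the next highest livers had 540 and 185 CPM.

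LBP encodes the lipopolysaccharide-binding protein that hands bacterial endotoxin to CD14 and TLR4. Its levels were 275, 401 and 716 CPM in treated and 199, 367 and 672 CPM in untreated IUGR livers, against 333, 390 and 728 CPM in treated and 324, 496 and 726 CPM in untreated normal-sized livers. ORM1 encodes orosomucoid, a carrier of basic drugs and lipids in plasma. It had 11255, 15497 and 24341 CPM in treated and 12093, 19900 and 33583 CPM in untreated IUGR livers, against 7349, 13105 and 27036 CPM in treated and 7498, 14326 and 23881 CPM in untreated normal-sized livers. No IUGR liver fell below 11255 CPM, a level that the lower normal-sized livers did not reach, yet the ranges overlapped over most of their length.

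ITIH3 and ITIH4 encode heavy chains of the inter-alpha-trypsin inhibitor family, whose members bind hyaluronan, although ITIH4 circulates without the light chain. ITIH4 had 1944, 3373 and 6220 CPM in treated and 1766, 3285 and 7491 CPM in untreated IUGR livers, against 1854, 2669 and 10392 CPM in treated and 1925, 4607 and 10670 CPM in untreated normal-sized livers. ITIH3 had 1266, 1483 and 2448 CPM in treated and 1130, 1624 and 2515 CPM in untreated IUGR livers, against 1138, 1674 and 2715 CPM in treated and 872, 1411 and 2010 CPM in untreated normal-sized livers. The neighbours thus differed in range, with the highest liver 6.04 times the lowest for ITIH4 and 3.11 times for ITIH3.

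**Figure D1:**
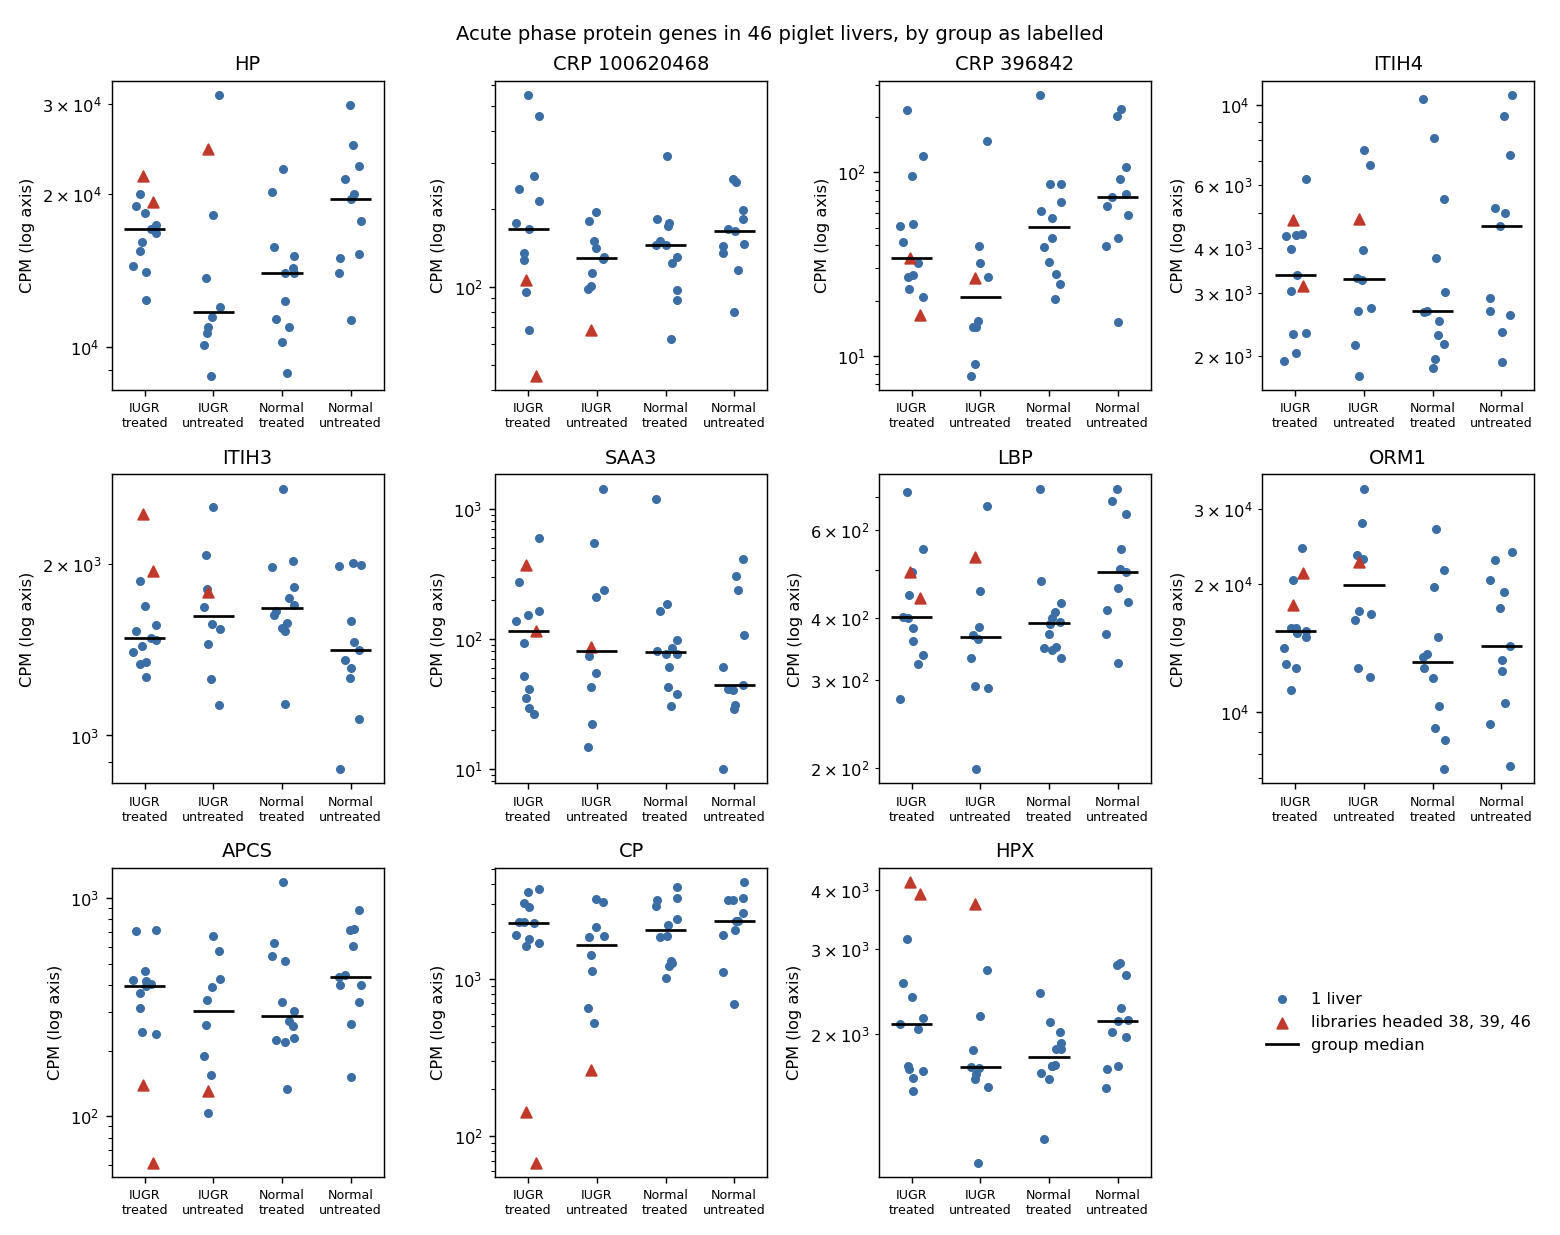
CPM of each of the 11 genes on a log axis, with a blue point for every liver, grouped as labelled. Red triangles are the libraries headed 38, 39 and 46 and bars are group medians; the groups overlap for every gene, and the 3 triangles lie below all others for CP (67.9 to 265 CPM) and above all others for HPX (3730 to 4148 CPM).

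The genes differed in how widely they spread between livers. The SD of log2 CPM over the 43 livers without those headed 38, 39 and 46 was 1.62 for SAA3 and 1.23 for CRP 396842, then 0.76 for APCS, 0.73 for ITIH4, 0.71 for CP and 0.64 for CRP 100620468. It was 0.51 for ORM1, 0.43 for HP, 0.41 for LBP, 0.32 for HPX and 0.31 for ITIH3. The median of the 11 was 0.64, beside 0.32 over all 13780 tested genes and 0.25 over the 3131 genes at least as abundant as the least abundant member. All 11 lay above that last value, and SAA3 was wider than 99.7% of those abundant genes. Removing the group means left the spread nearly as wide, at 1.66 for SAA3, 1.11 for CRP 396842 and 0.40 for HP. With all 46 livers the SD of CP was 1.20 in place of 0.71, and for no other member did it move by over 1.5 times.

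The libraries headed 38, 39 and 46 split the set. CP had 265, 142 and 67.9 CPM in them, against 526 to 4133 CPM in the other 43, and the medians differed by -3.97 on the log2 scale. HPX had 3730, 4148 and 3921 CPM there, against 1074 to 3148 CPM, with a log2 difference of 1.08. These were the only members for which all 3 libraries lay beyond the others on the same side. Over all tested genes this was so for 27.4% (below) and 19.1% (above). APCS (131, 139 and 61.4 CPM, against 103 to 1186 CPM) and CRP 100620468 (67.9, 106 and 45.2 CPM, against 62.8 to 549 CPM) also lay low, with log2 differences of -1.59 and -1.11. HP at 24481, 21637 and 19314 CPM stayed inside its range of 8787 to 31258 CPM. The summed erythroid markers were 1301 to 3101 CPM in these 3 libraries, against 150 to 2533 CPM in the others, and the summed hepatocyte markers 74318 to 117734 CPM, against 80162 to 224043 CPM. The Kupffer cell and macrophage sum was 2279 to 2944 CPM there, against 1187 to 2611 CPM, the endothelial sum 875 to 1389 CPM, against 382 to 1149 CPM, and the stellate sum 836 to 2380 CPM, against 326 to 1485 CPM. The lymphocyte sum was 10.3 to 15.3 CPM, against 3.60 to 12.5 CPM, the cholangiocyte sum 31.1 to 106 CPM, against 29.4 to 73.3 CPM, and the neutrophil sum 67.6 to 162 CPM, against 28.2 to 265 CPM. Their part in these levels was not tested.

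Most of the genes went up and down together over the livers. Over the 43 livers, the median Pearson's r of log2 CPM over the 55 pairs of the 11 genes was 0.41, beside -0.0028 over all 94937310 pairs of tested genes. Of the 55 pairs 48 were positive (87.3%, beside 49.5% of all pairs), and 24 had an r of at least 0.5 (43.6%, beside 2.45% of all pairs). In two-sided permutation tests with Benjamini-Hochberg adjustment over the 55 pairs, 36 pairs passed an adjusted p under 0.05 by Pearson's r and 33 by Spearman's rho, 32 of them by both measures, and all that passed by r were positive. With all 46 livers the median r was 0.32, 27 pairs passed by r and 33 by rho, and 16 pairs reached 0.5 (29.1%, beside 14.4% of all pairs). The livers share a normalization and, in part, litters, which these values do not separate.

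**Figure D2:**
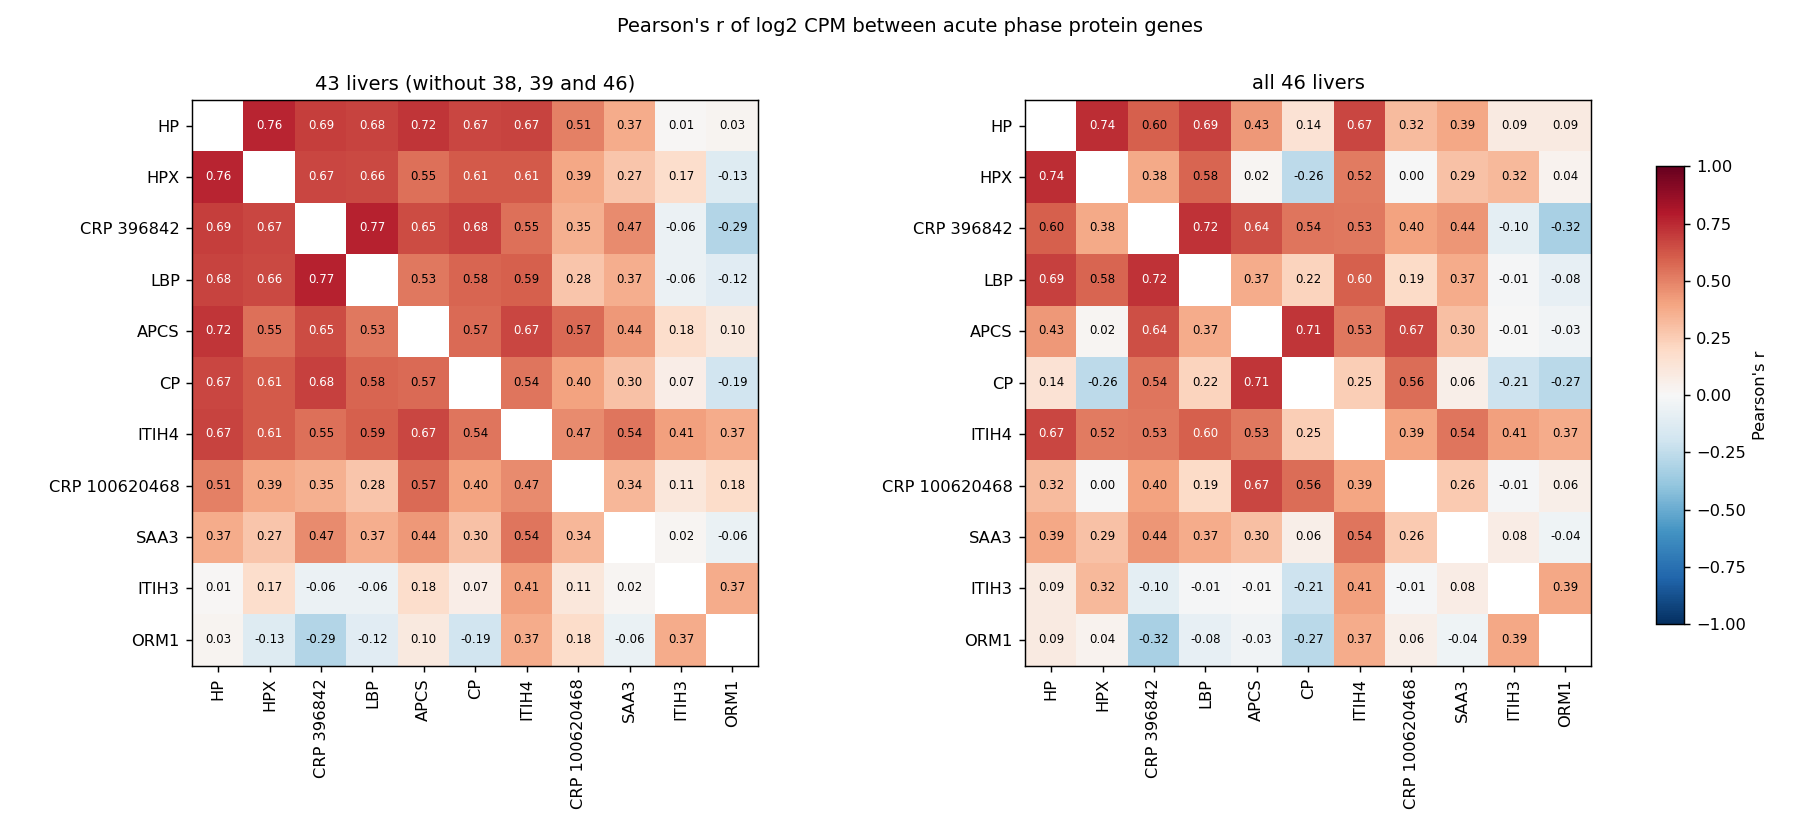
Pearson's r of log2 CPM for every pair of the 11 genes, over the 43 livers without those headed 38, 39 and 46 (left) and over all 46 (right), with red for positive and blue for negative r. HP, HPX, CRP 396842, LBP, APCS, CP and ITIH4 form a block of high r on the left, ITIH3 and ORM1 stay outside it, and CP leaves the block with HP and HPX on the right.

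Most of the genes formed a block. The median r of a member with the 10 others was 0.67 for HP, 0.60 for CRP 396842, 0.58 for HPX, 0.56 for APCS, 0.55 for LBP, 0.55 for CP and 0.54 for ITIH4. It was 0.37 for CRP 100620468 and 0.35 for SAA3. ITIH3 (0.09) and ORM1 (-0.02) had no partner with an r of 0.5 or more among the 10, while HP, APCS and ITIH4 had 7 each.

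The highest pair was CRP 396842 with LBP, with r = 0.77 and rho = 0.74 over the 43 livers (adjusted permutation p = 4.23e-05 and 5.5e-05), and r = 0.75 without the 2 livers farthest from the median of CRP 396842. HP with HPX, the haemoglobin and haem binders, followed with r = 0.76 and rho = 0.75 (adjusted permutation p = 4.23e-05 and 5.5e-05) and r = 0.72 without the 2 farthest livers. HP with APCS had r = 0.72 and rho = 0.70, HP with CRP 396842 had r = 0.69 and rho = 0.69, and CRP 396842 with CP had r = 0.68 and rho = 0.69, with values of 0.71, 0.64 and 0.64 for r when the 2 farthest livers were left out. Over all 46 livers these 5 pairs had an r of 0.72, 0.74, 0.43, 0.60 and 0.54, and each passed the adjusted threshold on both measures.

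Members that lie near each other in the genome were also read as pairs. APCS had r = 0.65 and rho = 0.68 with CRP 396842 and r = 0.57 and rho = 0.55 with CRP 100620468 (adjusted permutation p at most 0.000886 for all 4 values). The 2 CRP genes had r = 0.35 and rho = 0.33 with each other (adjusted permutation p = 0.032 and 0.0494). APCS was the member nearest to CRP 100620468 by both measures, as ITIH4 was to ITIH3, while CRP 396842 was nearest to LBP on another chromosome. ITIH4 with ITIH3 had r = 0.41 (adjusted permutation p = 0.012), and rho = 0.31 did not pass (adjusted permutation p = 0.07). HP with SAA3 had r = 0.37 and rho = 0.36 (adjusted permutation p = 0.0227 and 0.0332). Differences between these correlations were not tested.

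ORM1 was negative with CRP 396842, LBP, CP and HPX and positive with HP, APCS and ITIH4 over the 43 livers. Its lowest pair was CRP 396842, with r = -0.29 and rho = -0.32 (adjusted permutation p = 0.0809 and 0.0581), and over all 46 livers rho = -0.35 passed (adjusted permutation p = 0.0322) while r = -0.32 did not (adjusted permutation p = 0.0532). ORM1 with CP had r = -0.19 and ORM1 with HPX r = -0.13, and neither passed (adjusted permutation p = 0.303 and 0.507). Of its pairs with the block, that with ITIH4 passed (r = 0.37, rho = 0.37, adjusted permutation p = 0.0242 and 0.0304).

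The relations of CP differed with and without the libraries headed 38, 39 and 46. HP with CP had r = 0.67 and rho = 0.69 over the 43 livers (adjusted permutation p = 7.86e-05 and 0.00011), but r = 0.14 and rho = 0.45 over all 46 (adjusted permutation p = 0.464 and 0.00571). CP with HPX had r = 0.61 over the 43 livers (adjusted permutation p = 4.23e-05) and -0.26 over all 46 (adjusted permutation p = 0.129), where the 3 libraries formed a corner of their own with low CP and high HPX. APCS with HPX likewise had r = 0.55 (adjusted permutation p = 0.000336) and 0.02 (adjusted permutation p = 0.97).

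**Figure D3:**
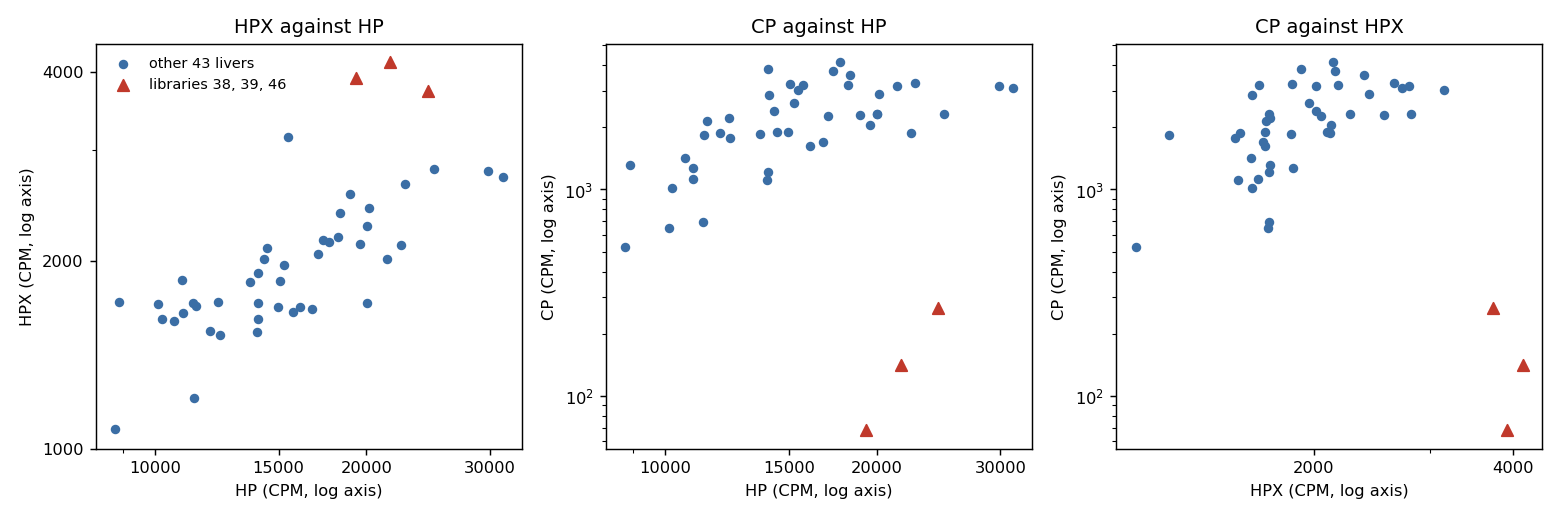
HPX against HP, CP against HP and CP against HPX in each liver, in CPM on log axes, with blue points for 43 livers and red triangles for the libraries headed 38, 39 and 46. The blue points rise together (r = 0.76, 0.67 and 0.61), and the 3 triangles lie away from them, at 67.9 to 265 CPM of CP and 3730 to 4148 CPM of HPX.

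Within the labelled groups, again without those 3 libraries, 11 treated IUGR, 9 untreated IUGR, 12 treated normal-sized and 11 untreated normal-sized livers remained. CRP 396842 with LBP was alike in all 4, with r = 0.73 in treated and 0.74 in untreated IUGR livers, against 0.68 in treated and 0.81 in untreated normal-sized livers. HP with CRP 396842 had r = -0.06 in treated and 0.84 in untreated IUGR livers, against 0.80 in treated and 0.79 in untreated normal-sized livers. HP with HPX had r = 0.33 in treated and 0.90 in untreated IUGR livers, against 0.63 in treated and 0.90 in untreated normal-sized livers. Whether r differed between groups was not tested. With the group means removed from all 46 livers, the median r over the 55 pairs was 0.36.

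Some livers were high for many of the genes at once. Among the 46 livers, pig 20 (untreated normal-sized) was among the 5 highest for 5 of the 11 genes (HP, LBP, APCS and both CRP genes), and pigs 22, 29, 36, 42 and 50 for 4 each. Pig 10 (untreated IUGR) was among the 5 lowest for 5 genes (APCS, CRP 396842, ITIH4, LBP and SAA3), and pigs 17, 21 and 61 for 4 each. The average over all livers is fixed at 1.20 genes by this way of counting. Pig 36 had the highest HP (31258 CPM) and SAA3 (1425 CPM) of all livers, and its ORM1 (12093 CPM) and ITIH3 (1130 CPM) were the lowest of its group. Pig 21 had 540 CPM of SAA3 but the lowest HP and HPX of all livers, so a high SAA3 did not always go with a high HP.

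**Figure D4:**
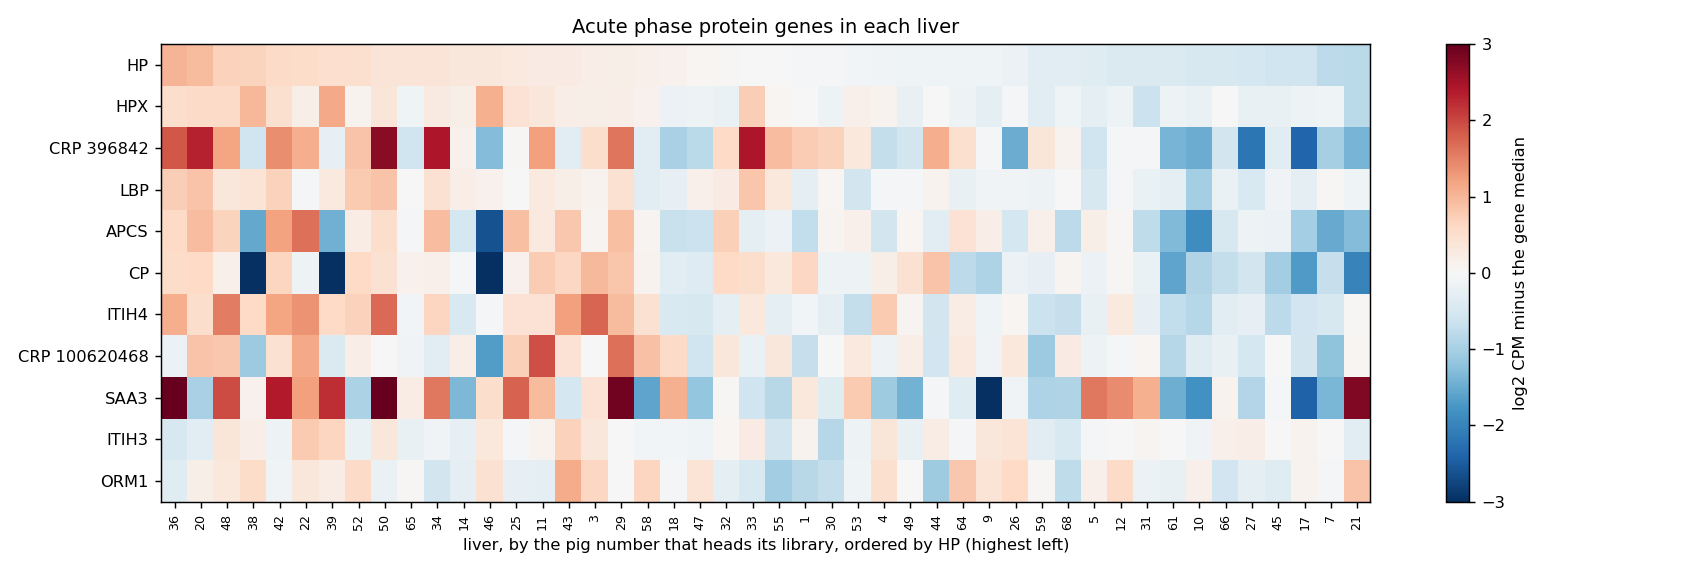
Level of each gene (rows) in each of the 46 livers (columns, from the highest HP at the left to the lowest at the right) as log2 CPM minus the gene's median, red above and blue below it, with colours ending at 3 log2 units. Pigs 10 and 17 are blue in most rows, the libraries headed 38, 39 and 46 are dark blue for CP, and the rows of ORM1 and ITIH3 follow another order than HP.

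For each member the 3 tested genes with the highest Spearman's rho over the 43 livers were taken as the most alike, as a description. The fibrinogen genes, which encode the 3 chains of the clotting protein, were nearest to LBP, with rho = 0.84 for FGB, 0.83 for FGG and 0.82 for FGA. Over all 46 livers their Pearson's r with LBP was 0.39, 0.17 and 0.61, beside 0.79, 0.79 and 0.78 over the 43. CRP 396842 was nearest to complement genes: C4BPA, a complement inhibitor, had rho = 0.86, and C2 and C6, both components of the cascade, had rho = 0.77 each. Among the genes nearest to CP were HPS3 (rho = 0.85), with which CP overlaps, and FGG (0.83). Over all 46 livers CRP 396842 with C4BPA had r = 0.65, beside 0.86 over the 43. For CP r was higher over all 46, at 0.95 with HPS3 and 0.93 with FGG, beside 0.88 and 0.80.

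SAA3 was nearest to SAA2 (rho = 0.81), a gene of the same family 45126 bases away, then to CFB (0.60) and C3 (0.60), which belong to the alternative pathway of complement. Counts of SAA3 were not whole in any of the 46 libraries. Whether its reads were shared out with SAA2, and so raised this rho, was not tested. ITIH4 was nearest to LOC100156325 (rho = 0.90), LOC396684 (0.83) and LOC106504547 (0.81), and these lie with LOC100153899 within chr7:115830305-115987392, a stretch that also holds SERPINA3-2. The same stretch gave the nearest genes of HP (LOC100153899, rho = 0.84), APCS (LOC100156325, 0.75) and HPX (LOC106504547, 0.76), and HPS3 (0.79) was also near HP, as SERPING1, the C1 inhibitor, was near HPX (0.75). Over all 46 livers HP with HPS3 had r = 0.16, beside 0.79 over the 43, and APCS with LOC100156325 had 0.50, beside 0.76. HP with LOC100153899 stayed at 0.83, beside 0.82.

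The genes outside the block had other partners. ORM1 was nearest to AHSG (rho = 0.78), then to CDH16, a cadherin (0.69), and FETUB (0.68). AHSG and FETUB are fetuin genes that lie 41607 bases apart, and both are among the negative acute phase genes described below. ITIH3 was nearest to STAT2, a relay of interferon signals (rho = 0.61), ABCD4 (0.60) and PARP3 (0.55). CRP 100620468 was nearest to TRMT6 (0.74), FAXDC2 (0.69) and SLC7A2 (0.68), none of which was near CRP 396842.

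Growth restriction was first compared in untreated piglets, and all comparisons from here on use the groups as labelled, with the doubt on the headings given above. With edgeR's quasi-likelihood test, 0 of the 11 genes passed an adjusted p under 0.05, beside 6 of 13780 tested genes (0.0435%). At an unadjusted p under 0.05 there were 2 of 11, beside 12.5% of all tested genes, and both were lower in IUGR livers (6.09% of all tested genes were lower at this threshold). CRP 396842 had a log2 fold change of -1.43 (SE 0.50, p = 0.00636, adjusted p = 0.206 with edgeR), with medians of 21.0 CPM in IUGR and 73.1 CPM in normal-sized livers. LBP had a log2 fold change of -0.39 (SE 0.17, p = 0.0245, adjusted p = 0.319 with edgeR), with medians of 367 and 496 CPM in IUGR and in normal-sized livers. The call on CRP 396842 turned on pig 36, whose 149 CPM was far above the 39.7 CPM of the next IUGR liver. Without pig 36 the log2 fold change was -2.13 (SE 0.48, adjusted p = 0.0428 with edgeR), and with limma voom and sample quality weights on all 46 livers it was -2.001 (SE 0.49, adjusted p = 0.0364), while over the other alternatives that kept all or all but the libraries headed 38, 39 and 46 the adjusted p was 0.104 to 0.248.

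The rest of the set did not move in a single direction in untreated piglets. The log2 fold changes of IUGR against normal-sized livers were negative for 8 of the 11 genes, with a median of -0.35, beside a median of 0.01 over all tested genes, of which 51.0% were above 0. The positive ones were SAA3 (1.18, 95% interval -0.22 to 2.59), ORM1 (0.40) and ITIH3 (0.18). All of these were outside the correlated block, but so was CRP 100620468, which was negative (-0.37). None of the remaining 9 genes reached an unadjusted p of 0.05, and the intervals did not exclude sizeable changes: HP had -0.34 (95% interval -0.70 to 0.02), APCS -0.59 (-1.28 to 0.11) and CP -0.59 (-1.39 to 0.21).

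Growth restriction was also compared in piglets given the paste. By edgeR 0 of 11 genes passed the adjusted threshold, beside 0.00726% of all tested genes, and 1 of 11 had an unadjusted p under 0.05, beside 16.7%. That gene was HPX, with a log2 fold change of 0.38 (SE 0.16, p = 0.0233, adjusted p = 0.257 with edgeR) and medians of 2093 CPM in treated IUGR and 1785 CPM in treated normal-sized livers. Without the libraries headed 38, 39 and 46 it was 0.17 (adjusted p = 0.918 with edgeR). The change of CRP 396842 was -0.21 (95% interval -1.08 to 0.67) here. The median over the 11 genes was -0.06, beside 0.02 over all tested genes.

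The paste was then compared within each size. In normal-sized piglets 0 of 11 genes passed the adjusted threshold by edgeR, as did 0% of all tested genes, and 1 of 11 had an unadjusted p under 0.05, beside 8.53%. HP was that gene, with a log2 fold change of -0.45 (SE 0.17, p = 0.014, adjusted p = 0.417 with edgeR) and medians of 14006 CPM in treated and 19556 CPM in untreated livers. In IUGR piglets 0 of 11 genes passed, beside 0.0290% of all tested genes, and 1 of 11 had an unadjusted p under 0.05, beside 4.54%. This was CRP 100620468, with a log2 fold change of 0.65 (SE 0.28, p = 0.0279, adjusted p = 0.981 with edgeR) and medians of 167 CPM in treated and 129 CPM in untreated livers. SAA3 had 0.57 (95% interval -0.77 to 1.91) with the paste in normal-sized and -0.76 (-2.10 to 0.57) in IUGR piglets, and both signs turned when pig 50 or pig 36 was left out, at -0.48 without pig 50 and 0.16 without pig 36.

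**Figure D5:**
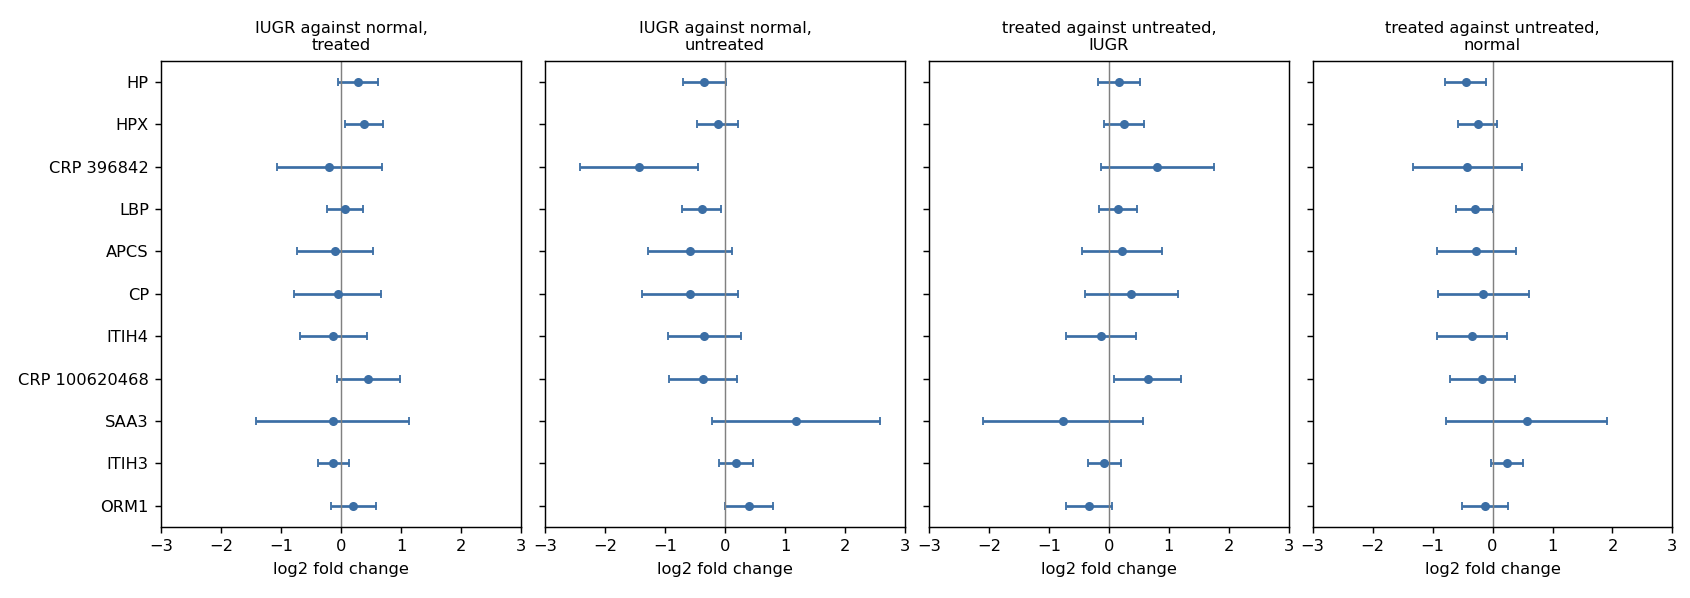
Log2 fold change of each gene in 4 comparisons, with bars for the approximate 95% interval from the standard error; the vertical line marks no change. None passed an adjusted p under 0.05, and the widest intervals are those of SAA3 (-0.22 to 2.59 for IUGR against normal-sized livers without the paste).

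The difference between the IUGR contrast with and without the paste was tested as an interaction. By edgeR 0 of 11 genes passed, as did 0% of all tested genes, and 3 of 11 had an unadjusted p under 0.05, beside 6.66%. All 3 were positive (4.44% of all tested genes were positive at this threshold), meaning a higher IUGR level relative to normal-sized livers with the paste than without it: HP at 0.62 (SE 0.25, p = 0.0168, adjusted p = 0.622), HPX at 0.50 (SE 0.24, p = 0.0402, adjusted p = 0.733) and CRP 100620468 at 0.81 (SE 0.40, p = 0.0459, adjusted p = 0.735). The median over the 11 genes was 0.48, beside 0.03 over all tested genes, and 8 of the 11 were above 0, beside 55.0% of all tested genes. SAA3 (-1.33, 95% interval -3.22 to 0.56), ITIH3 (-0.31) and ORM1 (-0.20) were the negative ones. The treated IUGR libraries headed 39 and 46 had the highest HPX, and its interaction was 0.39 to 0.64 when single libraries were left out. Each of these fits kept library 39 or 46, so the range does not show how far the interaction rests on both. Without the libraries headed 38, 39 and 46 the HPX contrast in treated piglets fell from 0.38 to 0.17. The size of the HPX interaction without them is not given here. The 4 comparisons above share their groups, so their values are not independent of each other. Most members were also correlated with each other, so counts of members by sign or by p do not rest on independent genes.

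Averaged over the paste, IUGR against normal-sized livers gave 0 of 11 genes past the threshold (0% of all tested genes) and 2 of 11 at an unadjusted p under 0.05, beside 22.8%. CRP 396842 was lower (log2 fold change -0.82, SE 0.33, adjusted p = 0.151 with edgeR) and ORM1 higher (0.30, SE 0.14, adjusted p = 0.194 with edgeR). Averaged over size, the paste gave 0 of 11 by either count, beside 0.0435% (adjusted) and 6.01% (unadjusted) of all tested genes. DESeq2, on all 4 groups and on the groups compared, also gave 0 of 11 genes in every comparison it was run on, and limma voom gave 0 of 11 in all but the comparison of untreated piglets. Over all genes DESeq2 on the untreated groups called 244, beside 6 with edgeR. Settings other than single libraries called 2 to 244 genes there, and voom alone is not given. They called 0 to 19 for IUGR in treated piglets and 0 to 117 for the paste in IUGR piglets.

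Other genes of the acute phase response were read in 5 lists. The pathway reaches the members through cytokines and their receptors, of which 9 of 16 were tested. IL6, IL1A, IL1B, LIF and OSM were in the table but under the filter, and the other 2 were not analysed here. None of the 9 passed in any comparison. In untreated piglets 0 had an unadjusted p under 0.05, and those with the smallest p were the receptor genes IL22RA1 (log2 fold change -0.24), IL1RAP (-0.39) and OSMR (-0.26). With the paste in IUGR piglets they were TNF (0.61), IL1R1 (0.34) and IL1RAP (0.30). Over the 43 livers the median r of these genes with the members was low, at -0.05 for IL6ST, the shared receptor chain of the interleukin 6 family, to 0.26 for IL22RA1.

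Of 19 relays inside the cell, 0 passed the adjusted threshold by edgeR and 7 were higher and 0 lower in untreated IUGR livers at an unadjusted p under 0.05, beside 6.45% of all tested genes higher. NFKBIA, the inhibitor that NF-kB itself induces, had 15.4, 29.4 and 69.0 CPM in IUGR and 9.99, 16.3 and 23.3 CPM in normal-sized livers without the paste (log2 fold change 1.02, SE 0.30, adjusted p = 0.113 with edgeR). NFKB2, a subunit of NF-kB, followed (0.88, SE 0.28, adjusted p = 0.146 with edgeR), and CEBPD, a factor induced in the acute phase, came next (0.85, SE 0.28, adjusted p = 0.169 with edgeR). The members themselves were mostly lower in the same comparison. For NFKBIA and NFKB2 the libraries headed 38, 39 and 46 were high, at 53.1 to 83.9 and 42.1 to 74.2 CPM, beside medians of 19.1 and 16.4 CPM in the other 43. With the paste in IUGR piglets the smallest p were those of HNF4A (0.31), SOCS3 (0.46) and CEBPD (-0.35). The median r with the members over the 43 livers lay between -0.24 for RELA and 0.27 for MYD88.

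Of 27 other positive acute phase genes tested, 0 passed, 4 were higher and 2 lower in untreated IUGR livers at an unadjusted p under 0.05, beside 6.45% higher and 6.09% lower over all tested genes. SERPINA1, the antitrypsin gene, had 4146, 7102 and 10502 CPM in IUGR and 2393, 3715 and 7824 CPM in normal-sized livers without the paste (log2 fold change 0.78, SE 0.23, adjusted p = 0.116 with edgeR). STEAP4, a metalloreductase, had 1.07 (SE 0.35) and C9, the last component of complement, had -0.36 (SE 0.15). In IUGR piglets given the paste the log2 fold changes with the smallest p were -0.59 for SERPINA1, -2.16 for the metallothionein gene MT1A and 2.48 for HAMP, which encodes the iron hormone hepcidin. HAMP rested on few livers, with a median of 0.568 CPM and a highest level of 177 CPM in treated IUGR livers.

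Several genes of this list followed the members over the 43 livers. The median r with the 11 members was 0.63 for FGB, 0.62 for FGG, 0.60 for FGA, 0.60 for CFB, 0.58 for PLG (plasminogen), 0.57 for SAA2 and 0.53 for C3. It was -0.13 for SERPINA1 and -0.06 for SAA4, a serum amyloid A gene known in humans and mice to be expressed without inflammation. The median over the 27 genes was 0.28.

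Of 13 negative acute phase genes, whose plasma proteins usually fall in inflammation, 0 passed, and 2 were higher and 0 lower in untreated IUGR livers at an unadjusted p under 0.05, beside 6.45% higher and 6.09% lower over all tested genes. They were SERPINA6, which encodes the cortisol-binding globulin (0.61, SE 0.22, adjusted p = 0.226 with edgeR), and AHSG (0.33, SE 0.16, adjusted p = 0.374 with edgeR), with FETUB next (0.54, SE 0.31). With the paste in IUGR piglets SERPINA6 had -0.56, the retinol carrier RBP4 0.32 and FETUB -0.69. Over the 43 livers ALB had a median r of -0.16 with the members, and GC, the vitamin D carrier, had 0.42 and was positive with all 11. Of 11 receptors and clearance genes 0 passed, and LRP1, the receptor that takes up hemopexin with its haem, had 0.53 in untreated IUGR livers (SE 0.18, adjusted p = 0.169 with edgeR), followed by HMOX1 (0.44) and FTL (-0.19). LRP1 was at 1130 to 1734 CPM in the libraries headed 38, 39 and 46, against 367 to 968 CPM in the others. FTL (0.27), SLC46A1 (0.21) and HEPH (0.39) led this list for the paste in IUGR piglets.

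Markers of the other cells of the liver were set beside the members. Over the 43 livers, the summed stellate cell markers (6 of 6 genes tested, 326 to 1485 CPM) were negatively correlated with all 11 genes, and 5 of them passed by both measures with adjustment over 88 relations: APCS (r = -0.65, rho = -0.59, adjusted permutation p = 0.00132 and 0.0044), ITIH4 (r = -0.64, rho = -0.59), CRP 100620468 (r = -0.55, rho = -0.42), HP (r = -0.46, rho = -0.48) and CRP 396842 (r = -0.45, rho = -0.51). ORM1 was the least related (r = -0.15). How all tested genes relate to this and the other marker sums was not computed. The relations are therefore not shown to be particular to the members. The collagen genes COL3A1 (median 491 CPM) and COL1A1 (218 CPM) made up most of the stellate sum (median 840 CPM over all 46 livers). LRAT, DES and DCN had medians of 26.0, 14.9 and 13.8 CPM. These relations are therefore largely with collagen transcripts, and the 6 genes were not correlated with the members one by one. In the labelled groups the stellate sum was 386, 879 and 2380 CPM (lowest, median and highest) in treated and 529, 938 and 1257 CPM in untreated IUGR livers, against 326, 787 and 1485 CPM in treated and 443, 807 and 1102 CPM in untreated normal-sized livers. Over all 46 livers HP did not pass (r = -0.32, rho = -0.38, adjusted permutation p = 0.132 and 0.0672). None of the other 7 marker sums passed with any member over the 43 livers by r, with r between -0.42 and 0.34. By rho 4 relations passed: SAA3 (rho = -0.48, adjusted permutation p = 0.0188) and APCS (rho = -0.41, adjusted permutation p = 0.0468) with hepatocyte markers, CRP 396842 with erythroid markers (rho = -0.44, adjusted permutation p = 0.0378) and CP with endothelial markers (rho = 0.43, adjusted permutation p = 0.0378). Over all 46 livers 8 relations with these sums passed by r, among them CP (r = -0.54, adjusted permutation p = 0.00299) and APCS (r = -0.50, adjusted permutation p = 0.00543) with erythroid and HPX (r = 0.53, adjusted permutation p = 0.00299) with Kupffer cell markers. By rho those of CP and APCS passed (adjusted permutation p = 0.0451 and 0.0382). That of HPX did not (rho = 0.33, adjusted permutation p = 0.135), and its r over the 43 livers was 0.26 (adjusted permutation p = 0.307). Kupffer cell and macrophage markers, of which 10 of 10 were tested (1187 to 2611 CPM), had r between 0.05 and 0.32 with the members, and neutrophil markers, of which 9 of 10 were in the table (28.2 to 265 CPM), had r between -0.11 and 0.31. ALB (median 96098 CPM) made up most of the hepatocyte sum (median 163553 CPM over all 46 livers). That sum also holds TTR, TF and APOA1, which like ALB are in the list of negative acute phase genes. It holds SERPINA1 and FGB of the positive list as well. Its relations with SAA3 and APCS therefore cannot be read as cell content alone. The part of the cell types in the levels of the members was not tested.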

How the data were processed

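Liver RNA of 46 piglets was sequenced by the authors as paired-end reads of 100 bp, and clean reads were mapped to Sscrofa11.1 with Bowtie2. The authors deposited estimated counts per gene for 18440 genes, not normalized for depth or length, of which 85.9% are whole, and no source used here names the counting program. The paper and the submitters' processing notes name DESeq2 without a version. No column of values was left without a sample.

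Here the estimated counts were rounded and tested with edgeR 4.0.16 (R 4.3.3): TMM scaling, filterByExpr with a minimum count of 10 over the 4 groups, a mean per group, the robust quasi-likelihood F test and Benjamini-Hochberg adjustment over 13780 genes at 0.05. Standard errors were derived from F. Counting error is small at 15036565 to 19340207 counts per library, and p-values measure the spread between piglets. Between the most similar libraries the chi-square was 25.4 per gene, and all 46 were counted as separate samples. Correlations used log2 CPM (prior count 1) and 100000 permutations (scipy 1.17.1), whose smallest adjusted p over 55 pairs is 4.23e-05 over the 43 livers. Scripts were tested on simulated data. The members and lists were chosen with earlier results of these data known. Named were all members, the 3 genes most like each by rho, the 3 genes of each list with the smallest p in untreated piglets and in IUGR piglets given the paste, and the pairs with the 5 highest and 3 lowest r, with CRP and APCS, HP and HPX, ITIH3 and ITIH4, and HP and SAA3. Other genes with their r, and pairs that turn on the libraries headed 38, 39 and 46, were chosen after their values were seen. A gene that the rule names for CP is not reported here.

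Alternatives were DESeq2 1.42.0, limma 3.58.1 voom with quality weights, DESeq2 size factors in edgeR, no filter, only the groups compared, pig number as a covariate, without pigs 38, 39 and 46, and leaving out each library. For correlations they were Spearman's rho, group means removed, other size factors and a prior count of 5.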

Additional observations from a re-analysis of the deposited data

Results flagged for a closer look

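In the 10 untreated IUGR livers, Dixon's test at 95% was run on the CPM of each of the 11 genes. It looks for a liver far from the others. It would flag about 1 in 20 groups by chance if levels followed a normal distribution, which was not checked. The test was not run on the log2 scale used for spread and correlations, where high values stand less far off. Pig 36 was flagged for 2 genes. CRP 396842 was at 149 CPM in it, against 39.7 CPM in the next liver and 7.78 CPM in the lowest. SAA3 was at 1425 CPM in it, against 540 CPM in the next and 14.7 CPM in the lowest. As log2 CPM, CRP 396842 was at 7.22 in pig 36, against 5.31 in the next liver and 2.97 in the lowest. SAA3 was at 10.48, against 9.08 and 3.88.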

How the results depend on the processing

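Without pigs 38, 39 and 46, or with other scaling, filter, covariate or tool, 0 of the 11 genes passed in every comparison, except that limma voom gave 1 (CRP 396842) in untreated piglets. Leaving out each library gave 0 to 1 genes there and 0 in each of the other 6 comparisons. The median r of the pairs was 0.30 to 0.37 when each library was left out and 0.32 to 0.41 under the other settings. Of 418 values of members under settings other than single libraries, 8 changed sign. For IUGR against normal-sized treated livers, limma voom turned ITIH4 to 0.024, LBP to -0.031, APCS to 0.34 and CP to 0.053, and leaving out pigs 38, 39 and 46 turned APCS to 0.072 and CP to 0.17. Limma voom also turned the paste in normal-sized livers for CP to 0.054 and in IUGR livers for ITIH4 to 0.066. ORM1 with HPX was -0.13 without those 3 pigs. Leaving out single libraries changed 14 of 2530 values, with ranges for treated IUGR against treated normal-sized livers of -0.58 to 0.23 (CRP 396842), -0.23 to 0.10 (ITIH4), -0.51 to 0.90 (SAA3), -0.026 to 0.16 (LBP), -0.22 to 0.17 (APCS) and -0.16 to 0.051 (CP), for the paste in normal-sized livers of -0.48 to 0.98 (SAA3), and in IUGR livers of -0.23 to 0.023 (ITIH4), -0.14 to 0.0090 (ITIH3) and -1.13 to 0.16 (SAA3). The cause was not tested. The count of all genes past the threshold in untreated piglets was 6, and 2 to 244 under other settings (1 to 114 without single libraries); for the paste in normal-sized piglets it was 0, and 0 to 783. No analysis paired by litter was possible because the litter of each piglet is not in the labels. Littermates were thus treated as independent piglets. Estimated counts shared out between similar genes limit SAA3 and ORM1.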
